A study of Mus musculus with 22 samples.

Results

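Krt7, Krt8, Krt18 and Krt19 encode the keratins of simple, single-layered epithelium, and their mRNA was read in mouse embryonic stem cells (ESCs) and primitive endoderm (PrE) stem cells. The genes were chosen by symbol, as 4 of the 55367 gene symbols in the deposited RNA-seq table, and all 4 passed the filter on low counts, beside 17547 genes in all. Keratins are the intermediate filament proteins of epithelial cells. A filament is built from pairs of a type I and a type II chain, so neither type forms filaments alone. Krt8 (type II) and Krt18 (type I) are the first keratin pair made in the mouse embryo, in trophectoderm and extraembryonic endoderm. Krt7 (type II) and Krt19 (type I) are later or more restricted partners in ducts, mesothelium and trophoblast.

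The 22 libraries fell into 10 groups, and the study asked how the Polycomb enzyme Ezh2 guards ESCs against the PrE fate. PrE stem cells, grown as a model of the embryonic layer that borders the blastocoel, came from 3 wild-type sources in PrESC culture: C57_PrESC from cells labelled C57 (n = 2), and EPZ_iPrE1 and EPZ_iPrE2 from E14 cells (n = 2 each). The series describes both EPZ lines as wild-type ESCs converted with EPZ-6438, an inhibitor of the Ezh2 methyltransferase. Wild-type ESCs with LIF were C57_ESC (n = 2), TG2A_ESC, titled TG2A.NG.PB.ESC (n = 2), and E14_ESC, titled ESC (n = 3), the last 2 groups both from E14 cells. The genotype of the remaining E14 groups is spelled Eeh2 in the labels and was read as Ezh2. They were the null line 10 with LIF (KO10_SL, n = 3), the same line with LIF and 2i (KO10_S2iL, n = 2) and the rescued line with LIF (KO10_SL_rescued, n = 2), beside wild-type TG2A.NG.PB.S2iL cells with LIF and 2i (TG2A_S2iL, n = 2). The term 2i stands for a pair of kinase inhibitors that hold ESCs in a naive state. Knockout results rest on 1 null line. No label ties replicates to separate cultures, so p-values measure only the spread between these libraries, which may be technical.

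The libraries held 13.6 to 26.3 M estimated counts each, and the lowest correlation of log2 CPM between replicates was 0.952 to 0.991 per group. Levels are given as CPM, the count scaled to library size with TMM factors. Against E14_ESC, Ezh2 was lower in KO10_SL by a log2 change of -11.50 (SE 0.261) and higher in the rescued line by 1.52 (SE 0.140). All 8 PrE markers on a fixed list rose in each of the 3 PrE groups (adjusted p below 0.05). Of all tested genes, 60.1% were called in EPZ_iPrE1, 62.2% in EPZ_iPrE2 and 60.6% in C57_PrESC. The summed level of the PrE markers was 6988 to 8607 CPM in PrE libraries against 24.0 to 274 CPM in the 9 wild-type ESC libraries. Fibroblast (feeder) markers were uneven within groups. Their 11 genes summed to 28.4 and 1883 CPM in C57_PrESC, 25.4 and 308 CPM in C57_ESC, 174 and 29.7 CPM in EPZ_iPrE1, 59.0 and 290 CPM in EPZ_iPrE2, and 10.6 to 65.3 CPM in every other library. Squamous epithelium markers stayed at or below 8.18 CPM in sum and mesothelium markers at or below 28.4 CPM, with 0 to 7 of 8 and 0 to 4 of 6 genes at 0 counts.

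Krt7, Krt8 and Krt18 lie in the type II keratin cluster on chromosome 15 (GRCm38, GENCODE M21), where Krt18 is the one type I gene. Krt7 (ENSMUSG00000023039.17) spans chr15:101411043-101430313 on the plus strand and overlaps Gm671, an antisense gene. Krt8 (ENSMUSG00000049382.10) spans chr15:101996698-102004482 on the minus strand and overlaps Gm36026, a long noncoding RNA on the plus strand. Krt18 (ENSMUSG00000023043.7) spans chr15:102028180-102032027 on the plus strand, and 23697 bp lie between it and Krt8. Krt19 (ENSMUSG00000020911.14) spans chr11:100140810-100148665 on the minus strand, among the type I keratins. The strand setting of the counting is not given in the sources used here, so reads of Krt7 and Krt8 cannot be told apart from those of their opposite-strand neighbours.

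Krt8 and Krt18 moved together in most comparisons below and Krt7 did not, so the promoter windows are shown for these genes. The windows run from 250 bases before to 50 bases after the RefSeq start (GRCm38.p6), written 5′ to 3′ on the gene's strand, and 3 of the 4 genes matched the RefSeq table. Capitals mark matches, on either strand, to any of 5 motifs. The GC box of Sp1 and KLF factors was searched as GGGCGG. The AP-1 site was searched as TGANTCA. The GATA site was searched as AGATAA. The TATA box was searched as TATAAA, and the ETS site of epithelial ETS factors as CCGGAAG. The RefSeq starts differ from the ends of the GENCODE spans given above, and the whole Krt7 window lies inside its GENCODE span. Positions below count from the RefSeq start. Krt7 is chr15:101412153-101412452 (+), Krt8 is chr15:102004293-102004592 (-) and Krt18 is chr15:102027966-102028265 (+).
Krt7: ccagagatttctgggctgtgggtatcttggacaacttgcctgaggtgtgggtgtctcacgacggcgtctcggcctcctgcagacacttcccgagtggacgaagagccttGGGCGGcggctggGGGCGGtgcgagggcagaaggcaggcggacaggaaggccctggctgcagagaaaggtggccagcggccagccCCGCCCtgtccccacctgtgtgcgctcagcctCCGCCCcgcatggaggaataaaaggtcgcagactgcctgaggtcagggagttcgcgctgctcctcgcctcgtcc
Krt8: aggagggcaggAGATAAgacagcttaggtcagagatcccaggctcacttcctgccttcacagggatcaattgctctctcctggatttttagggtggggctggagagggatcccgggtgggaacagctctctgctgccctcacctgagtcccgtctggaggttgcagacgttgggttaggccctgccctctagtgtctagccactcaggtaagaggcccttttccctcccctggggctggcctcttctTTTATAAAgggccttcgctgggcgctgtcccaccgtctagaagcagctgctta
Krt18: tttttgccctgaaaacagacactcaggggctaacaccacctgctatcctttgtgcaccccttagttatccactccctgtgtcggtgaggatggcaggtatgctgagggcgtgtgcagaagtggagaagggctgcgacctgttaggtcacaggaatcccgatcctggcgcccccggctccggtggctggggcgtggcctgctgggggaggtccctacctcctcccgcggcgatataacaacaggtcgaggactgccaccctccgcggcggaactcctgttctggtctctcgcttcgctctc
The Krt7 window held 4 GC boxes, with their first bases at -141, -128, -56 and -24 from the start. The Krt8 window held 1 AGATAA at -239 and overlapping TATAAA matches on the 2 strands right at it. None of the 5 motifs matched in the Krt18 window, so the Krt8 and Krt18 windows shared none of them. Over all 32851 windows of the table, 35.7% held a GC box, 7.81% TGANTCA, 11.2% AGATAA, 13.6% TATAAA and 8.86% CCGGAAG.

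Krt8, the type II partner, was highest in PrE cells and in the knockout under 2i. Its level was 277 and 194 CPM in EPZ_iPrE1, 134 and 153 CPM in EPZ_iPrE2, and 162 and 132 CPM in C57_PrESC. KO10_S2iL held 147 and 143 CPM, and KO10_SL held 59.2, 90.8 and 86.2 CPM. The wild-type ESC libraries were all lower than these, at 30.1 and 20.3 CPM in TG2A_ESC, 18.5, 15.4 and 33.9 CPM in E14_ESC, 18.1 and 45.8 CPM in C57_ESC, and 31.3 and 32.5 CPM in TG2A_S2iL. The rescued libraries were the lowest of all 22, at 5.21 and 4.88 CPM. In the order of group means EPZ_iPrE1 stood first, C57_PrESC, KO10_S2iL and EPZ_iPrE2 overlapped their neighbours in the order, and KO10_SL came next without overlap on either side.

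Krt18, the type I partner of Krt8, followed nearly the same order. It stood at 210 and 166 CPM in EPZ_iPrE1, 97.7 and 123 CPM in EPZ_iPrE2, and 219 and 172 CPM in C57_PrESC. KO10_S2iL held 102 and 102 CPM, and KO10_SL held 45.1, 66.6 and 71.7 CPM. Wild-type ESCs held 17.8 and 8.60 CPM in TG2A_ESC, 13.0, 12.1 and 32.3 CPM in E14_ESC, 14.1 and 38.0 CPM in C57_ESC, and 16.1 and 13.7 CPM in TG2A_S2iL. Every PrE and knockout library was above every wild-type ESC library. The rescued libraries, at 9.59 and 7.61 CPM, overlapped TG2A_ESC.

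Krt19, a type I keratin that can also pair with Krt8, varied less. It stood at 21.7 and 10.3 CPM in EPZ_iPrE1, 23.0 and 61.6 CPM in EPZ_iPrE2, 16.5 and 22.5 CPM in C57_PrESC, and 36.3 and 33.4 CPM in KO10_S2iL. The other groups held 8.01 and 2.25 CPM in TG2A_ESC, 8.68, 15.9 and 21.2 CPM in E14_ESC, 7.31 and 9.79 CPM in C57_ESC, 8.37, 16.6 and 16.6 CPM in KO10_SL, 8.26 and 6.80 CPM in the rescued line, and 13.3 and 12.9 CPM in TG2A_S2iL. EPZ_iPrE2 and KO10_S2iL overlapped at the top, and the groups from C57_PrESC to TG2A_S2iL in the order of means overlapped each other in turn.

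Krt7, the second type II gene, went the other way in PrE cells. The 6 PrE libraries held 0 to 2 counts each, at 0.154 and 0.156 CPM in EPZ_iPrE1, 0 and 0 in EPZ_iPrE2, and 0.135 and 0 CPM in C57_PrESC. The ESC groups held 2.39 and 0.367 CPM in TG2A_ESC, 2.99, 3.83 and 7.09 CPM in E14_ESC, 1.48 and 8.33 CPM in C57_ESC, and 4.68 and 3.62 CPM in TG2A_S2iL. KO10_SL held 2.76, 5.11 and 4.96 CPM, the rescued line 2.50 and 1.18 CPM, and KO10_S2iL 18.6 and 17.0 CPM. The 2 KO10_S2iL libraries were the highest for Krt7, with no overlap with any other group, and every PrE library was below every other library.

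**Figure D1:**
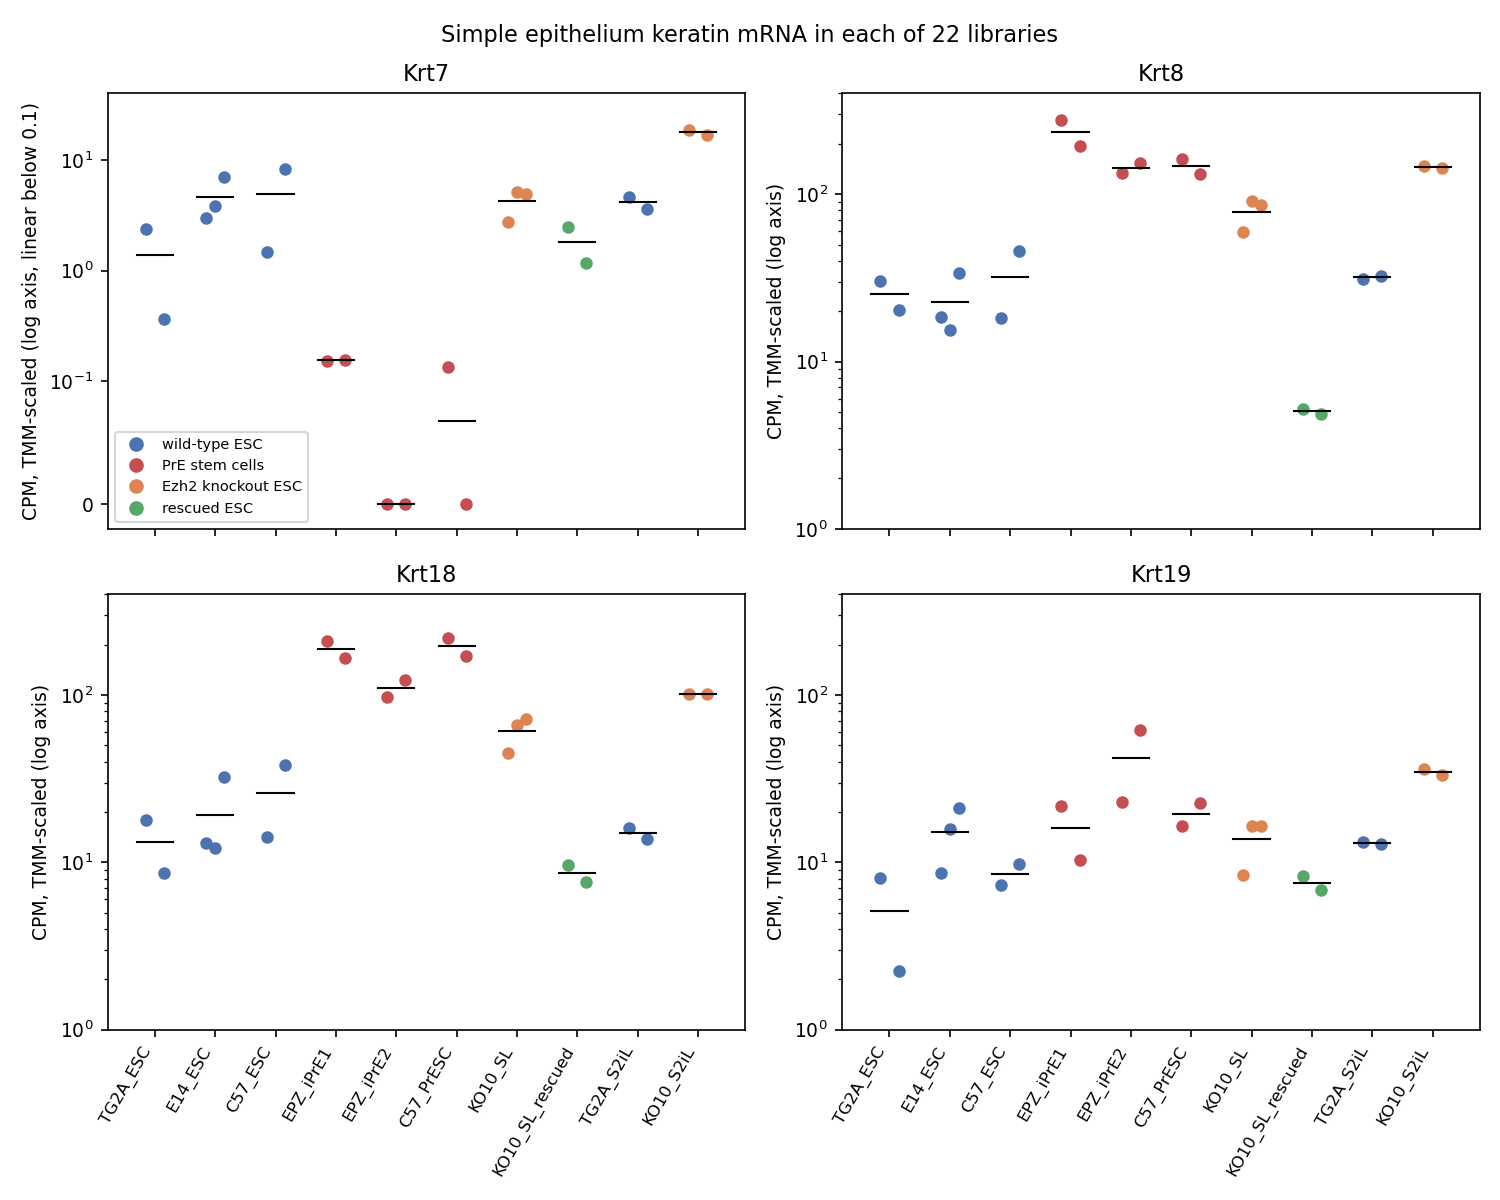
Levels of Krt7, Krt8, Krt18 and Krt19 in the 22 libraries, in CPM after TMM scaling on a log axis (linear below 0.1 for Krt7), by group; points are libraries and bars are group means. Krt8 and Krt18 are high in PrE and knockout cells, while Krt7 is at 0 to 2 counts in the 6 PrE libraries and highest in KO10_S2iL.

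In the E14-derived PrE lines, Krt8, Krt18 and Krt19 rose against TG2A_ESC and Krt7 fell. In EPZ_iPrE1, all 4 genes were called by edgeR's quasi-likelihood test with Benjamini-Hochberg adjustment (adjusted p below 0.05), where 60.1% of all tested genes were called. Krt18 rose by a log2 change of 3.83 (SE 0.494, adjusted p = 4.33e-06), Krt8 by 3.22 (SE 0.393, adjusted p = 2.29e-06) and Krt19 by 1.64 (SE 0.567, adjusted p = 0.0194). Krt7 held 53 counts over the TG2A_ESC libraries and 4 over the EPZ_iPrE1 libraries, a level 8.94-fold lower (exact 95% interval of the count ratio 3.29 to 34.0, counting error only; edgeR adjusted p = 0.0301). The Krt7 call was lost without EPZ_iPrE1 replicate 1 (log2 change -3.12), without its replicate 2 (-3.12) and without TG2A_ESC replicate 1 (-1.17). The Krt19 call was lost without EPZ_iPrE1 replicate 1 (0.98) and without TG2A_ESC replicate 2 (1.02), and without TG2A_ESC replicate 1 the estimates were 2.86 for Krt19 and 4.49 for Krt18. The Krt19 level in EPZ_iPrE1 (21.7 and 10.3 CPM) overlapped that of E14_ESC, the other wild-type E14 set in LIF (8.68 to 21.2 CPM), a pair that was not tested. These are bulk libraries, in which fewer cells of a type and less RNA per cell cannot be told apart.

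EPZ_iPrE2 was compared with the same TG2A_ESC libraries, so the 2 comparisons share their controls. In it 3 of the 4 genes rose and 1 fell, where 62.2% of tested genes were called. Krt18 rose by 3.06 (SE 0.481), Krt19 by 3.04 (SE 0.577, edgeR adjusted p = 2.25e-04) and Krt8 by 2.51 (SE 0.383). Krt7 had 0 counts in both EPZ_iPrE2 libraries, at least 13.7-fold lower against a floor of 3 counts over the group; that call was lost without TG2A_ESC replicate 1 (fitted log2 change -5.76). Without that library Krt18 rose by 3.71 and Krt19 by 4.25, and Krt19 rose by 2.16 without EPZ_iPrE2 replicate 2 and by 2.41 without TG2A_ESC replicate 2. Between the 2 EPZ lines none of the 4 genes was called (edgeR, 1 at an unadjusted p below 0.05; DESeq2, 0), where 3.91% of tested genes were. Krt19 was 1.40 higher in EPZ_iPrE2 (SE 0.538, edgeR adjusted p = 0.193), and its libraries did not overlap those of EPZ_iPrE1.

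In the C57 cells, Krt8 and Krt18 rose and Krt7 fell, where 60.6% of tested genes were called. Krt18 rose by 2.90 (SE 0.468, edgeR adjusted p = 4.91e-05) and Krt8 by 2.20 (SE 0.377, edgeR adjusted p = 9.20e-05). Krt7 went from 193 counts over the ESC libraries to 2 over the PrE libraries, 79.7-fold lower (exact 95% interval 21.8 to 663). Krt19 was 1.19 higher (SE 0.545) and did not pass (edgeR adjusted p = 0.0696), although the libraries of the groups did not overlap. The fibroblast marker sum differed between replicates in both groups, and the C57_ESC library with the higher sum also held more of all 4 keratin mRNAs. Without C57_PrESC replicate 2, the library at 1883 CPM of fibroblast markers, Krt8 rose by 2.34 and Krt18 by 3.07, and without C57_ESC replicate 2 by 3.03 and 3.80. Krt7 was called in both cases, with fitted changes of -5.12 and -4.41.

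The change in the EPZ lines (their mean) was then set against that in the C57 cells. None of the 4 genes was called for this difference (edgeR, 0 at an unadjusted p below 0.05; DESeq2, 0), where 35.1% of tested genes were. The estimates were 0.66 for Krt8 (SE 0.486), 0.54 for Krt18 (SE 0.597) and 1.15 for Krt19 (SE 0.733), and differences of that size were not detectable at these errors. Krt7 was at 0.75 (SE 3.49), with 0 to 4 counts in each PrE group. Single libraries set these directions: without C57_ESC replicate 2, the one with more fibroblast markers, the estimates were -0.17 for Krt8, -0.36 for Krt18 and -0.99 for Krt7. Without C57_ESC replicate 1 Krt8 was at 1.18 and called, and without TG2A_ESC replicate 1 Krt19 was at 2.35 and called.

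Within each of the 3 PrE groups, the library with more Krt19 was also the one with the higher fibroblast and visceral endoderm marker sums, a pattern noticed after the values were seen. The visceral endoderm sum, over 8 genes of the PrE derivative that faces the epiblast, was 804 and 263 CPM in EPZ_iPrE1, 593 and 1576 CPM in EPZ_iPrE2, and 1659 and 5082 CPM in C57_PrESC, for replicates 1 and 2. The parietal endoderm sum, over 8 genes of the derivative that lines the trophectoderm, went the other way, at 7723 and 11729.7 CPM, 13682 and 8717 CPM, and 13849.6 and 7705 CPM. In the PrE libraries 2 to 5 of the 8 visceral endoderm genes were at 0 counts. Of the 5 that were tested, 3 rose and 2 fell in each PrE comparison, beside 60.1%, 62.2% and 60.6% of all tested genes called. Their sum is thus not a signal of all 8 genes. The part of fibroblast, visceral or parietal endoderm cells in the Krt19 level was not tested.

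In ESCs without Ezh2, the Krt8 and Krt18 pair rose while Krt7 and Krt19 were not called. In KO10_SL against E14_ESC, 2 of the 4 genes were called, where 48.6% of tested genes were. Krt8 rose by 1.79 (SE 0.307, edgeR adjusted p = 1.56e-04) and Krt18 by 1.65 (SE 0.371, edgeR adjusted p = 0.00154). Krt7 differed by -0.13 (SE 0.587) and Krt19 by -0.15 (SE 0.433). E14_ESC replicate 3 held the most of all 4 keratins in its group, and without it Krt8 rose by 2.21 and Krt18 by 2.28. With TG2A_ESC as the control, Krt8 rose by 1.64 and Krt18 by 2.21, while Krt7 (1.63) and Krt19 (1.43) were again not called. All 8 PrE markers rose in KO10_SL too, to a sum of 762 to 906 CPM. So did all 8 parietal endoderm markers and 4 of 5 tested visceral endoderm markers. Of 10 tested trophoblast markers, 6 rose and 1 fell. The part of PrE-like, other endoderm or trophoblast-like cells in the keratin levels was not tested.

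In the rescued line the pair fell. In KO10_SL_rescued against KO10_SL, 2 of the 4 genes were called, where 45% of tested genes were. Krt8 fell by 3.96 (SE 0.417, edgeR adjusted p = 1.73e-06) and Krt18 fell by 2.83 (SE 0.468, edgeR adjusted p = 1.35e-04) on the log2 scale. Krt7 differed by -1.22 (SE 0.709) and Krt19 by -0.88 (SE 0.508), and neither was called. Both rescued libraries were below all 3 KO10_SL libraries for each of the 4 genes. In the same comparison all 8 PrE markers fell (median -4.27), as did all 8 parietal endoderm markers (median -2.62). Of 10 tested trophoblast markers, 7 fell and 1 rose. The trophoblast marker sum was 77.0 and 70.9 CPM in the rescued line against 52.0 to 60.6 CPM in KO10_SL, but it was mostly Tfap2c in the rescued line. This factor of ESC and trophoblast held 66.2 and 61.3 CPM there, against 20.2, 23.7 and 21.4 CPM in KO10_SL. The sum therefore does not describe the list as a whole. The part of PrE-like or trophoblast-like cells in the keratin levels was not tested.

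Krt8 went below the wild-type level in the rescued line. Against E14_ESC only 0.108% of tested genes (19 genes) were called, and Krt8 was one of them, at a log2 change of -2.18 (SE 0.400, edgeR adjusted p = 0.0464). The 2 rescued libraries were below the 3 E14_ESC libraries for each of the 4 genes. This call did not survive without E14_ESC replicate 1 (-2.30), without its replicate 3 (-1.75), or without rescued replicate 1 (-2.23) or 2 (-2.14), and it was lost with a replicate block (-1.90). Krt18 (-1.18, SE 0.452), Krt19 (-1.03, SE 0.511) and Krt7 (-1.35, SE 0.712) were not called.

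Under 2i, the knockout held more of all 4 keratin mRNAs than the wild type in every library. In KO10_S2iL against TG2A_S2iL, 3 of the 4 genes were called, where 30% of tested genes were. Krt18 rose by 2.77 (SE 0.476, edgeR adjusted p = 5.15e-04), Krt8 by 2.18 (SE 0.378, edgeR adjusted p = 5.40e-04) and Krt7 by 2.10 (SE 0.737, edgeR adjusted p = 0.0426). Krt19 was 1.41 higher (SE 0.537) and missed the threshold (edgeR adjusted p = 0.0570). The Krt7 call was lost when any 1 of the 4 libraries was left out (1.91 to 2.27) and with a replicate block (2.10, edgeR adjusted p = 0.0561). KO10_S2iL also held the higher trophoblast marker sum, 126 and 130 CPM over 13 genes against 95.2 and 89.9 CPM, with 3 of the 13 at 0 in both knockout libraries. Tfap2c held 61.1 and 63.3 CPM of that sum in KO10_S2iL and 59.2 and 57.4 CPM in TG2A_S2iL. Of 10 tested trophoblast markers, 5 rose and 0 fell. The PrE marker sum was further apart, at 218 and 217 CPM against 26.5 and 24.0 CPM, and 5 of the 8 PrE markers rose and 0 fell. The part of trophoblast-like or PrE-like cells in the keratin levels was not tested.

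In wild-type cells, none of the 4 genes was called between media (edgeR, 1 at an unadjusted p below 0.05; DESeq2, 1, Krt19), where 23.3% of tested genes were called. TG2A_S2iL differed from TG2A_ESC by 0.34 for Krt8 (SE 0.374), 0.17 for Krt18 (SE 0.476), 1.35 for Krt19 (SE 0.563) and 1.58 for Krt7 (SE 0.779). This rests on TG2A_ESC replicate 1: without it Krt7 (3.48) and Krt19 (2.54) were called, and without replicate 2 they were at 0.79 and 0.70 and not called.

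In the knockout, keratin mRNA was higher under 2i. In KO10_S2iL against KO10_SL, 3 of the 4 genes were called, where 36.9% of tested genes were. Krt7 rose by 2.05 (SE 0.638, edgeR adjusted p = 0.0196), Krt19 by 1.33 (SE 0.471, edgeR adjusted p = 0.0355) and Krt8 by 0.88 (SE 0.322, edgeR adjusted p = 0.0411), and Krt18 was 0.73 higher (SE 0.391, edgeR adjusted p = 0.157). No library of one medium overlapped the other for any of the 4. These calls were fragile: the number called fell to 0 without KO10_SL replicate 1 or either KO10_S2iL library, and to 1 (Krt7) without KO10_SL replicate 2 or 3. PrE markers moved the opposite way, with 7 of 8 fallen and a sum of 218 and 217 CPM in KO10_S2iL. Of 10 tested trophoblast markers, 4 rose and 0 fell, close to the 36.9% share of all tested genes. Their sum over 13 genes was 126 and 130 CPM in KO10_S2iL against 52.0 to 60.6 CPM in KO10_SL. Tfap2c held 61.1 and 63.3 CPM of it in KO10_S2iL. The part of PrE-like or trophoblast-like cells in these levels was not tested.

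Whether the knockout change differed between media was tested as an interaction, with TG2A_ESC as the control in LIF medium. None of the 4 genes was called (edgeR, 0 at an unadjusted p below 0.05; DESeq2, 0), where 1.95% of tested genes were. The estimates were 0.54 for Krt8 (SE 0.495), 0.56 for Krt18 (SE 0.618), 0.47 for Krt7 (SE 1.01) and -0.02 for Krt19 (SE 0.703). With E14_ESC as the control in LIF medium the estimates were 0.40 for Krt8, 1.11 for Krt18, 2.23 for Krt7 and 1.56 for Krt19, again with none called, and without TG2A_ESC replicate 1 Krt7 was at -1.40. Between the 2 wild-type E14 sets in LIF, 1 of the 4 genes was called, Krt19, which was higher in E14_ESC than in TG2A_ESC by 1.58 (SE 0.528, edgeR adjusted p = 0.0387), where 24.3% of tested genes were called. That call was lost without TG2A_ESC replicate 2 (0.95) and without E14_ESC replicate 2 (1.55) or 3 (1.26). Krt7 had a larger estimate with a larger error (1.75, SE 0.731) and was not called.

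**Figure D2:**
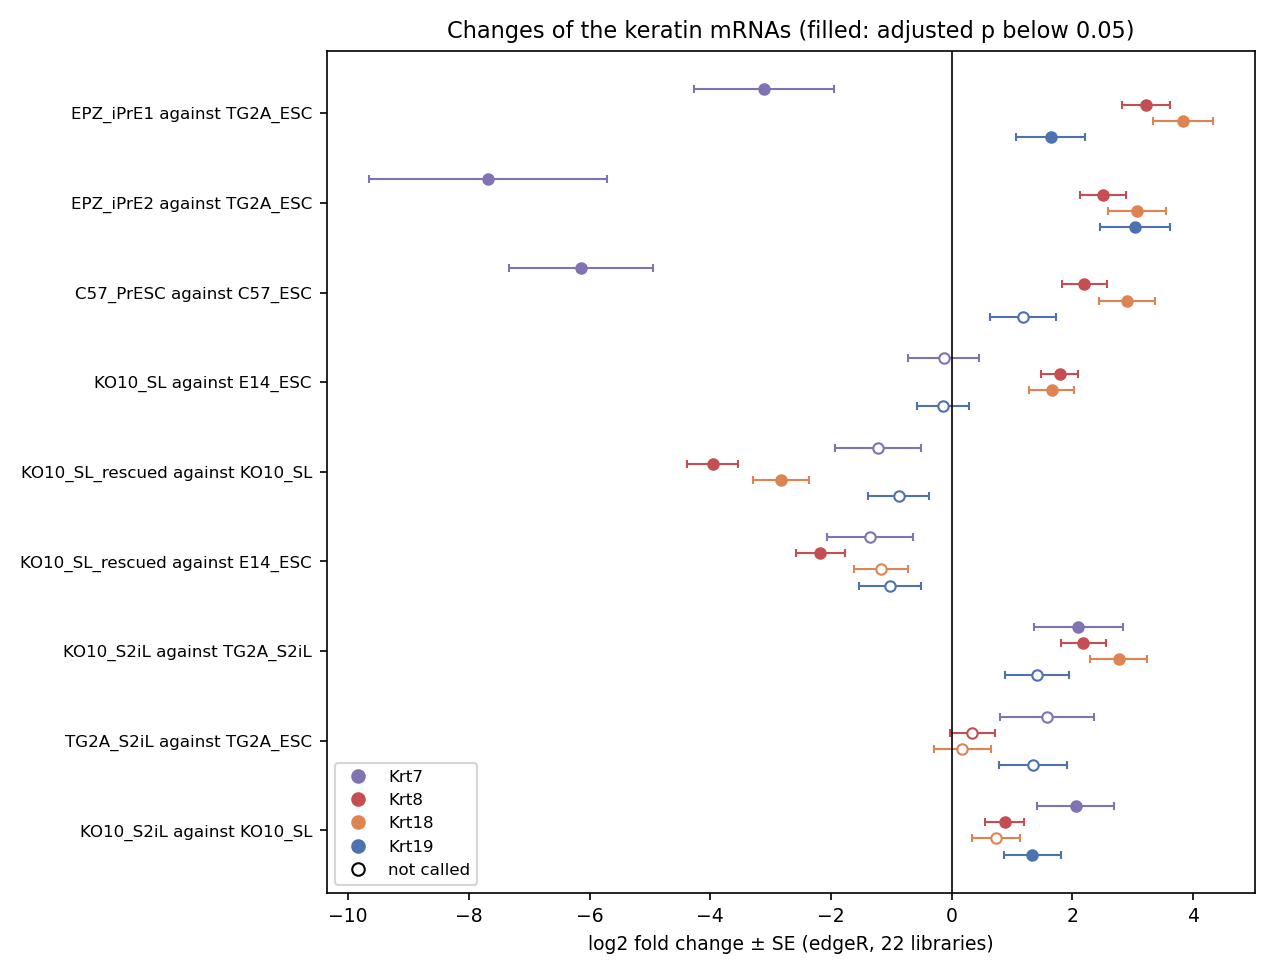
Log2 fold change ± SE of each keratin gene in 9 comparisons (edgeR fit to 22 libraries); filled points passed an adjusted p of 0.05. Krt8 and Krt18 lie on the same side of 0 in every comparison shown, and Krt7 lies to the left in the 3 PrE comparisons; the SE of Krt7 there rests on groups with 0 to 4 counts.

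The summed level of the 4 genes was 255 to 508 CPM in PrE libraries, 295 and 304 CPM in KO10_S2iL, 115 to 179 CPM in KO10_SL, 31.6 to 102 CPM in wild-type ESCs and 20.5 and 25.6 CPM in the rescued line. Levels of different genes were then compared per kb of exon, as counts over the joined exon length. The ratio of Krt18 to Krt8 was near 1 in most groups: 1.03 to 1.17 in EPZ_iPrE1, 0.994 to 1.10 in EPZ_iPrE2, 0.9995 to 1.13 in KO10_SL, 0.940 to 0.969 in KO10_S2iL, 0.957 to 1.30 in E14_ESC and 1.06 to 1.13 in C57_ESC. C57_PrESC stood apart at 1.77 and 1.84, and the rescued line at 2.13 and 2.51. TG2A cells had more Krt8 than Krt18, with ratios of 0.576 and 0.807 in TG2A_ESC and 0.575 and 0.702 in TG2A_S2iL. Against KO10_SL, the rescued line had the larger fitted fall in Krt8 of the pair.

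Of Krt18 and Krt19, Krt19 was the lower per kb in PrE cells and in their ESC controls. Other type I keratins are left out of this share. One of them, Krt42, stood at 44.9 and 21.8 CPM in TG2A_ESC and 23.5 and 50.9 CPM in C57_ESC. Krt19 made up 4.58 to 7.44% of Krt18 plus Krt19 per kb in EPZ_iPrE1, 5.50 to 9.22% in C57_PrESC, and 15.4 to 27.9% in EPZ_iPrE2. Its share was 16.9 to 25.8% in TG2A_ESC, within the EPZ_iPrE2 range, and 16.7 to 28.7% in C57_ESC. The share was 12.6 to 16.2% in KO10_SL and 20.3 to 21.7% in KO10_S2iL. It reached 40.02 to 40.93% in the rescued line, 38.9 to 42.1% in TG2A_S2iL and 33.8 to 50.4% in E14_ESC. Krt7 was below Krt8 in every library, at 0 to 0.0232% of Krt7 plus Krt8 per kb in PrE cells, 3.19 to 3.39% in KO10_S2iL and 6.29 to 11.7% in the rescued line. The exons of Krt7 join to 7049 bp over 5 transcripts, and the principal transcript has 4094 bp. With that length the Krt7 share in the rescued line was 10.4 to 18.6%, and Krt7 remained below Krt8.

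**Figure D3:**
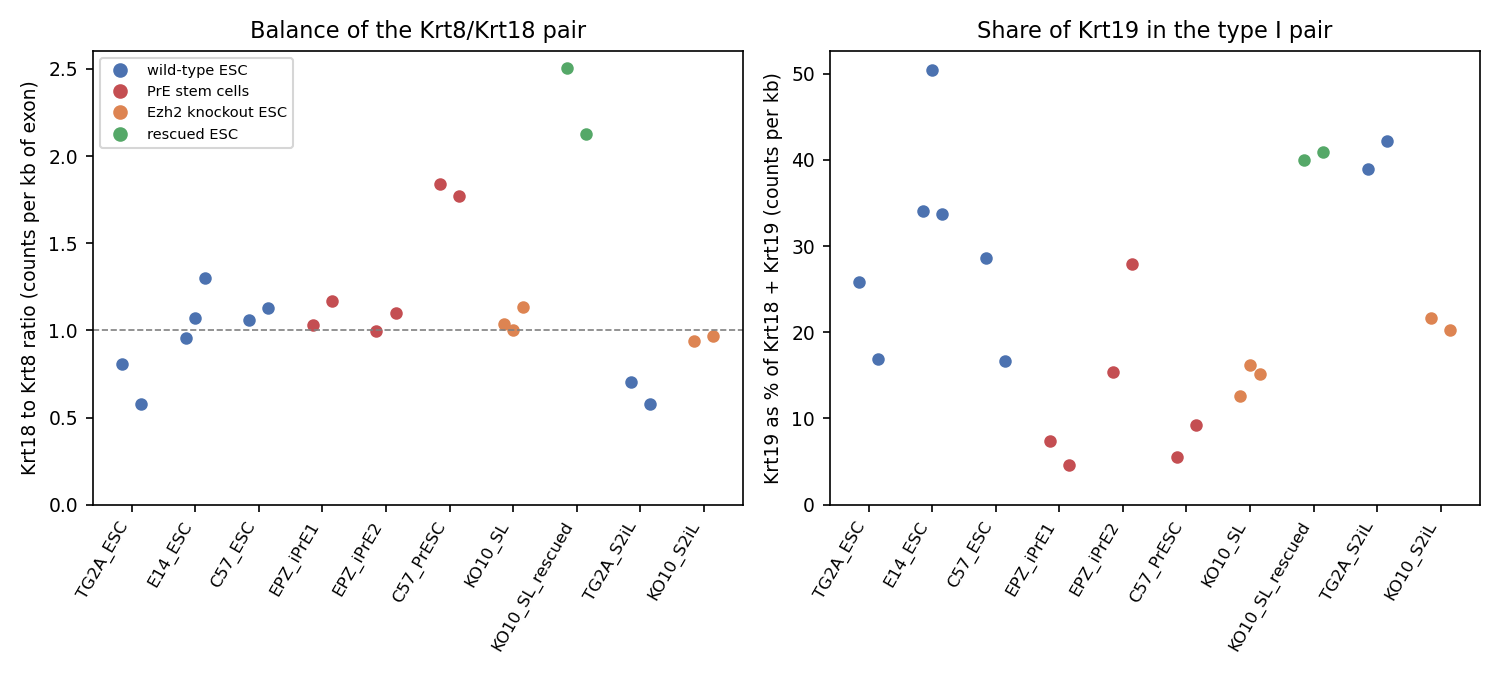
Left, the ratio of Krt18 to Krt8 counts per kb of exon in each library (dashed line, equal levels); right, Krt19 as a percentage of Krt18 plus Krt19 per kb. C57_PrESC (1.77 and 1.84) and the rescued line (2.13 and 2.51) have the highest Krt18 to Krt8 ratios.

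Across the 10 group means on the log2 scale, Krt8 and Krt18 had a Pearson correlation of 0.948, and Krt19 had 0.697 with Krt8 and 0.721 with Krt18. Krt7 had -0.379 with Krt8, -0.474 with Krt18 and -0.147 with Krt19. These are descriptions over 10 groups that share one scaling. Among 10639 genes with a group mean of at least 10 CPM, those most like Krt8 were Nipsnap3b (0.970), Emp2 (0.968), an epithelial membrane protein gene, and Uap1l1 (0.966). Those most like Krt18 were Tns4 (0.987), a focal adhesion adaptor, Phc2 (0.984), a PRC1 subunit, and Hoxb4 (0.982), a homeobox factor. For Krt7 they were Tnfrsf1b (0.983), a TNF receptor, Tmem229b (0.972) and Tgm2 (0.971), a transglutaminase, each highest in KO10_S2iL and lowest in an EPZ line. For Krt19 they were Igsf8 (0.932), Insig1 (0.926), a regulator of sterol synthesis, and Coasy (0.904), an enzyme of coenzyme A synthesis.

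Other keratins were low in PrE cells. Of 50 other keratin symbols in the table, 15 passed the filter on low counts, and 8 fell and 0 rose in EPZ_iPrE1 (7 not called). In EPZ_iPrE2 8 fell and 1 rose, and in C57_PrESC 9 fell and 1 rose. These counts are no result about the family: most of the 15 were at or near 0 in PrE libraries and passed the filter through ESC or knockout groups, so they could hardly do other than fall, and the rest of the 50 were too low to test. Fitting only the compared groups left 4, 4 and 2 that fell. Krt42, a type I keratin, stood at 44.9 and 21.8 CPM in TG2A_ESC and 23.5 and 50.9 CPM in C57_ESC, and had 0 counts in all 6 PrE libraries. It was at least 288-fold lower in EPZ_iPrE1, 331-fold lower in EPZ_iPrE2 and 399.9-fold lower in C57_PrESC, against a floor of 3 counts over the group. Krt17, a type I keratin of stratified and injured epithelium, stood at 14.4 and 8.39 CPM in TG2A_ESC and had 1 count over the 6 PrE libraries. Krt23 was the one other keratin that rose, in EPZ_iPrE2 (3.36, SE 1.13, edgeR adjusted p = 0.0169) and in C57_PrESC (edgeR adjusted p = 0.0382), from levels at or below 0.157 CPM in the ESC controls to at most 1.78 CPM. It was lost in EPZ_iPrE2 without EPZ_iPrE2 replicate 2 or TG2A_ESC replicate 1, and in C57_PrESC without either C57_ESC library, without C57_PrESC replicate 2 or with a replicate block. The summed level of the 50 was 0.880 to 3.42 CPM in PrE libraries and 26.1 to 73.2 CPM in the other 16.

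In the knockout other keratins were called in both directions. In KO10_SL against E14_ESC, 5 of 15 rose and 4 fell, where 48.6% of all tested genes were called. Krt6a, a type II keratin of stressed epithelium, was at 0 counts in the 3 E14_ESC libraries and at 0.528, 0.695 and 0.848 CPM in KO10_SL (edgeR adjusted p = 0.00101; DESeq2 adjusted p = 0.194). In KO10_S2iL against TG2A_S2iL 2 rose and 2 fell, where 30% of all tested genes were called. Neither count is read as a result about the family. Krt14, a basal keratin, rose by 4.99 to 1.81 and 2.38 CPM, a call lost without either TG2A_S2iL library, and Krt42 fell by 1.83. Krt80 rose under 2i in the knockout, from 0.0406, 0.0409 and 0.0848 CPM to 3.42 and 2.43 CPM (5.57, SE 0.865, edgeR adjusted p = 2.45e-04). Reads of the pseudogene Krt8-ps were at most 0.363% of Krt8 in any library.

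**Figure D4:**
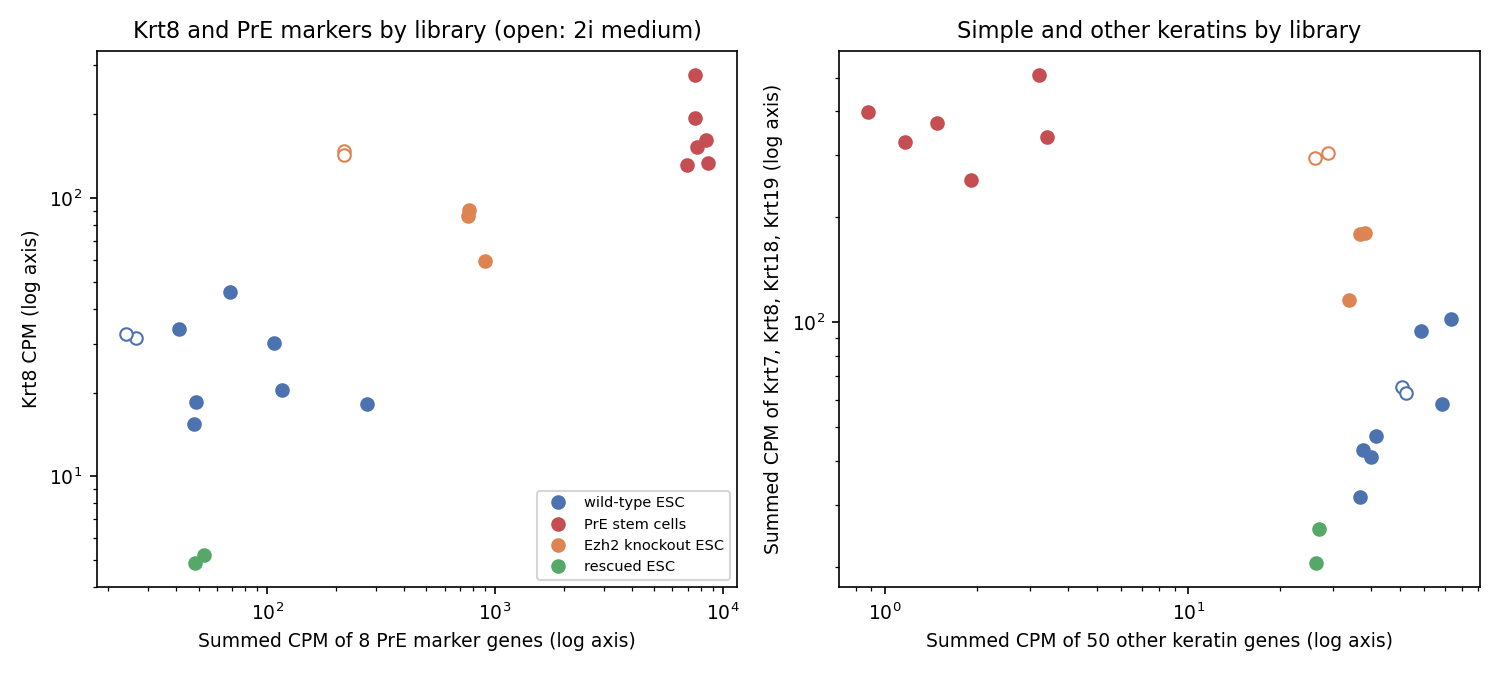
Left, Krt8 CPM against the summed CPM of 8 PrE marker genes in each library, both on log axes (open points, 2i medium); right, the summed CPM of the 4 simple epithelium keratins against that of the 50 other keratins. KO10_S2iL has Krt8 at PrE levels (147 and 143 CPM) with a PrE marker sum of 218 and 217 CPM, and the 6 PrE libraries have the lowest sums of other keratins.

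Other intermediate filament genes were called in both directions in PrE cells, where 60.1%, 62.2% and 60.6% of all tested genes were called in EPZ_iPrE1, EPZ_iPrE2 and C57_PrESC. Of 15 on the list, 14 were tested, and 3 rose and 8 fell in EPZ_iPrE1, 3 rose and 9 fell in EPZ_iPrE2, and 2 rose and 7 fell in C57_PrESC. Nefm, a neurofilament subunit, rose by 6.70 (SE 0.376) in EPZ_iPrE1, while Nefh, the heavy neurofilament subunit, fell by 7.39 (SE 0.362) and Ina, the alpha-internexin gene, fell by 8.09 (SE 0.501). In KO10_SL 7 of 14 rose and 4 fell, where 48.6% of all tested genes were called, with Nefl (2.51, SE 0.203) and Nefm (3.06, SE 0.342) among those that rose. The list medians were -1.43, -1.68, -1.16 and 1.09 in these 4 comparisons.

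Keratin filaments attach to desmosomes. Of 15 desmosome and linker genes, 3 rose and 6 fell in EPZ_iPrE1, 3 rose and 7 fell in EPZ_iPrE2, and 4 rose and 8 fell in C57_PrESC. That is 9, 10 and 12 of 15 called, beside 60.1%, 62.2% and 60.6% of all tested genes, so in the EPZ lines the list was called at close to the share of genes at large. The summed level of the list did not follow these counts. It was 1774 and 1889 CPM in EPZ_iPrE1 and 1583 and 1421 CPM in EPZ_iPrE2, against 916 and 777 CPM in TG2A_ESC. The linker gene Dst held 990 and 1009 CPM of it in EPZ_iPrE1. C57_PrESC had a sum of 1608 and 1259 CPM against 888 and 981 CPM in C57_ESC. The desmosomal cadherins Dsc2 (4.80, SE 0.395) and Dsg2 (2.69, SE 0.175) rose in EPZ_iPrE1, where the plaque protein gene Pkp2 fell by 2.87 (SE 0.181) and Perp, a desmosomal tetraspan gene, fell by 4.13 (SE 0.589). In C57_PrESC, Dsg2 rose by 3.66 (SE 0.182) and Evpl, the envoplakin gene, fell by 3.92 (SE 0.333). In KO10_SL 1 of 15 rose and 6 fell, where 48.6% of all tested genes were called. Dsc2 rose by 1.31 (SE 0.298), and Dst, which links intermediate filaments to hemidesmosomes, fell by 1.42 (SE 0.146), a call lost with TG2A_ESC as the control (-0.28). In the rescued line, against KO10_SL, Dsc2 fell by 1.61 and Dst rose by 1.34. Under 2i the knockout had 6 of 15 risen and 0 fallen against the wild type, where 30% of all tested genes were called. Dsc2 (1.79) and Ppl (1.53, the periplakin gene) were among those that rose. Within the knockout, 2i went with 9 of 15 risen and 1 fallen, Dst (1.89) and Dsc2 (1.26) among those that rose, where 36.9% of all tested genes were called. In wild-type cells it went with 4 risen and 1 fallen, where 23.3% were called, and Dsp (1.53, the desmoplakin gene) and Dst (1.16) were among those that rose.

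Of the called epithelial surface and tight junction genes, more fell than rose in PrE cells. Of 15, 10 fell and 2 rose in EPZ_iPrE1, 10 fell and 3 rose in EPZ_iPrE2, and 9 fell and 1 rose in C57_PrESC, beside 60.1%, 62.2% and 60.6% of all tested genes called in either direction. The summed level of the list did not follow these counts: it was 1239 and 922 CPM in TG2A_ESC, 1181 and 1265 CPM in EPZ_iPrE1 and 1545 and 1469 CPM in EPZ_iPrE2. Cdh1, the E-cadherin gene, stood at 461 and 343 CPM in TG2A_ESC, 708 and 791 CPM in EPZ_iPrE1, and 1008 and 867 CPM in EPZ_iPrE2. In EPZ_iPrE1, Cgn, the gene of the tight junction protein cingulin, fell by 2.98 (SE 0.304) and the polarity gene Crb3 fell by 3.47 (SE 0.496). In KO10_SL against E14_ESC 6 fell and 2 rose, where 48.6% of all tested genes were called. Cdh1 (-1.0, SE 0.0974) and Tjp1, the ZO-1 gene (-1.12, SE 0.0974), were among those that fell. The choice of control matters for these falls. In E14_ESC against TG2A_ESC 6 of the 15 rose and 0 fell, Tjp1 by 0.75 (SE 0.110), where 24.3% of all tested genes were called. Cdh1 stood at 312, 287 and 291 CPM in KO10_SL and at 578, 620 and 589 CPM in E14_ESC. In KO10_S2iL against TG2A_S2iL 5 rose and 1 fell, where 30% of all tested genes were called. Against KO10_SL 6 rose and 0 fell, where 36.9% were called, with Cldn3, a claudin gene, up by 2.24 (SE 0.390). The list medians were -1.84, -1.50 and -0.99 in the 3 PrE comparisons, -0.40 in KO10_SL and 0.59 in KO10_S2iL against TG2A_S2iL.

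Among 17 tested epithelial transcription factor genes, 4 rose and 3 fell in EPZ_iPrE1, 5 rose and 5 fell in EPZ_iPrE2, and 7 rose and 5 fell in C57_PrESC. Of all tested genes, 60.1%, 62.2% and 60.6% were called in these 3 comparisons. The list was called at a lower share in EPZ_iPrE1 (7 of 17), near that share in EPZ_iPrE2 (10 of 17) and a little above it in C57_PrESC. The AP-1 genes Jun (4.74, SE 0.497) and Fos (4.09, SE 0.315) rose in EPZ_iPrE1, and Grhl3, of the grainyhead family, fell by 3.92 (SE 0.367). Jun stood at 107 and 96.6 CPM there against 4.89 and 2.73 CPM in TG2A_ESC. Tfap2c, a factor of ESC and trophoblast, fell by 5.16 (SE 0.514) in EPZ_iPrE2 and fell by 7.88 (SE 0.532) in C57_PrESC, where Grhl2 fell by 7.77 (SE 0.635). In KO10_SL 4 rose and 3 fell, where 48.6% of all tested genes were called. Elf3, an epithelial ETS factor gene, rose by 1.73 (SE 0.185) and Tfap2a by 3.18 (SE 0.414), and Grhl2 fell by 2.74 (SE 0.308). Elf3 fell by 2.03 and Grhl2 rose by 2.11 in the rescued line. In KO10_S2iL against TG2A_S2iL 6 rose and 0 fell, where 30% of all tested genes were called. Jun was among those that rose (1.54, SE 0.452, a call lost when any 1 of the 4 libraries was left out), and Elf3 rose under 2i in wild-type cells by 2.43 (SE 0.233). Within the knockout 2i went with 5 risen and 1 fallen, Tfap2c (1.52, SE 0.301) among those that rose, where 36.9% of all tested genes were called.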

How the data were processed

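RNA-seq counts of 22 mouse libraries in 10 groups were analysed. The authors deposited a table of estimated counts per gene symbol, made from trimmed and aligned reads and not scaled, per the submitters' processing notes and the values. Named there are mm10 as the build, with STAR 2.7.6a, Trim Galore and DESeq2 as tools. The counting tool is not given in the sources used here, nor is its strand setting. The labels name polyA RNA and an rRNA depletion kit, so the RNA selection is uncertain. The design had assumed raw counts; the estimated counts were rounded.

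In R 4.3.3, edgeR 4.0.16 kept 17547 genes (filterByExpr), scaled by TMM and fitted 1 coefficient per group to all libraries (12 residual degrees of freedom). Contrasts used the quasi-likelihood F test with Benjamini-Hochberg adjustment over all tested genes, called at an adjusted p below 0.05. The SE is the absolute change over the square root of F. A positive change means more mRNA in the group named first. On simulated counts for EPZ_iPrE1 against TG2A_ESC, with 16624 genes, 72% of 100 genes changed by a log2 of 1 and 95% of 100 changed by 2 were recovered, with 6 false calls. Only genes above a set mean level were changed there, and all others were held equal across groups. In the real comparison 60.1% of tested genes were called, so these rates do not carry over to it or to low counts such as those of Krt7. Alternatives were RLE scaling, no filter, DESeq2 1.42.0, only the compared groups, other controls, a replicate block and leaving out each library. Intervals cover counting error only.

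The 4 genes and the lists were chosen with earlier results of these data known. Named genes were the 4 keratins, at most 4 called members per list with the largest change, and for each keratin the 3 genes with the highest correlation of group means; Krt23 falls outside this rule and was named after its values were seen.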

Additional observations from a re-analysis of the deposited data

How the results depend on the processing

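Over 545 refits of the 52 changes of the 4 keratins, 482 kept their side of the threshold, 35 lost a call and 28 gained one. Of the 545, 27 had another sign than the reported value, all of them not called in either fit. RLE scaling changed no call. Krt8 and Krt18 kept their calls in the 3 PrE comparisons, in KO10_SL against E14_ESC and against the rescued line, and in KO10_S2iL against TG2A_S2iL under every alternative run. Fitting only the compared groups lost Krt19 in EPZ_iPrE1 (1.64) and in E14_ESC against TG2A_ESC (1.57), and gained Krt7 (-1.18) and Krt19 (-0.84) in rescued against KO10_SL, Krt19 in KO10_S2iL against TG2A_S2iL (1.42) and Krt18 in KO10_S2iL against KO10_SL (0.67). It gave no value for Krt7 in the 3 comparisons of EPZ groups with TG2A_ESC and with each other, where Krt7 did not pass its filter. DESeq2 gained Krt19 in KO10_S2iL against TG2A_S2iL (1.46) and in TG2A_S2iL against TG2A_ESC (1.34).

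Without the low-count filter the prior degrees of freedom went from 4.37 to infinite, and 16 calls were gained: Krt19 in C57_PrESC (1.19); Krt8 (-0.73), Krt18 (-0.78) and Krt19 (1.39) between the EPZ lines; Krt8 (0.65) and Krt19 (1.15) in the EPZ change less the C57 change; Krt7 (-1.24) and Krt19 (-0.90) in rescued against KO10_SL; Krt18 (-1.18) and Krt19 (-1.03) in rescued against E14_ESC; Krt19 (1.47) in KO10_S2iL against TG2A_S2iL; Krt7 (1.59) and Krt19 (1.35) in TG2A_S2iL against TG2A_ESC; Krt18 (0.75) in KO10_S2iL against KO10_SL; and Krt7 (1.78) and Krt18 (0.58) in E14_ESC against TG2A_ESC.

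The labels tie replicates of different groups by number only. Deviations of same-numbered libraries correlated at 0.290 in the C57 comparison and at -0.363 between the EPZ lines. In the other comparisons they correlated at -0.0510 to 0.0536. A replicate block lost Krt8 in rescued against E14_ESC (-1.90), Krt7 in KO10_S2iL against TG2A_S2iL (2.10) and Krt19 in E14_ESC against TG2A_ESC (1.28), gained Krt18 in KO10_S2iL against KO10_SL (1.01), and changed no other call of the 4 genes. A crossed replicate block between the EPZ lines, chosen after seeing the data, called 0 of the 4 genes.

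Leaving out 1 library moved these values, with at least 1 call lost or gained: in EPZ_iPrE1, Krt7 from -3.87 to -1.17 and Krt19 from 0.98 to 2.86; in EPZ_iPrE2, Krt7 from -8.46 to -5.76; in the EPZ change less the C57 change, Krt8 from -0.17 to 1.18 and Krt19 from 0.51 to 2.35; in rescued against E14_ESC, Krt8 from -2.38 to -1.75; in KO10_S2iL against TG2A_S2iL, Krt7 from 1.91 to 2.27; in TG2A_S2iL against TG2A_ESC, Krt7 from 0.79 to 3.48 and Krt19 from 0.70 to 2.54; in KO10_S2iL against KO10_SL, Krt7 from 1.83 to 2.20, Krt8 from 0.72 to 1.0 and Krt19 from 1.08 to 1.49; in E14_ESC against TG2A_ESC, Krt7 from 0.97 to 3.67 and Krt19 from 0.95 to 2.79. Krt23 in C57_PrESC ranged from 0 to 6.14, and without C57_PrESC replicate 2, the one library of its pair with Krt23 reads, no change was left. The cause was not tested.

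Counts of all called genes ranged over the alternatives from 5383 to 10689 in C57_PrESC (10642 in the reported fit), 28 to 1143 between the EPZ lines (686), 3041 to 6387 in the EPZ change less the C57 change (6167), 4863 to 10315 in KO10_SL (8524), 1 to 551 in rescued against E14_ESC (19), 2847 to 9607 in KO10_S2iL against TG2A_S2iL (5263), 2076 to 4514 in TG2A_S2iL against TG2A_ESC (4086), 3847 to 10037 in KO10_S2iL against KO10_SL (6482), 44 to 4557 in the interaction (343) and 1676 to 4634 in E14_ESC against TG2A_ESC (4270). With 0 to 4 counts, depth limits any statement on Krt7 in PrE cells.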
